A study of Sus scrofa with 4 samples.

Results

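The inner root sheath genes examined here are the keratins KRT25, KRT26, KRT27, KRT28, KRT71, KRT72, KRT73 and KRT74, the trichohyalin gene TCHH and the transcription factor gene GATA3, chosen by name and read in epidermal cells sorted from pig skin. Of these 10 genes, 7 had a row among the 29837 named genes of the deposited counts, and all 7 passed the filter on low counts. KRT71, KRT72 and KRT73 had no row under these symbols and are not analysed here by name. RNA was sequenced from LGR5-high cells (GFP-hi, labelled LGR5-GFP+) and LGR5-negative cells (GFP-neg, labelled LGR5-GFP-) of 2 juvenile pigs, 88R and 95R, with 1 library of each population from each pig. Both populations came from LGR5-H2B-GFP knock-in pigs, in which a histone H2B-GFP fusion, inserted into the first exon of a single LGR5 allele, is driven by the LGR5 promoter, so that the negative cells carry the same allele. The line began with a clonal fibroblast line and somatic cell nuclear transfer, and the sex of pigs 88R and 95R and whether they were clones or their progeny are not given in the sources used here. GFP of this kind stays in the nucleus and is diluted as cells divide. Cells of dim GFP, which the study sorted apart and saw in the inner root sheath, were not analysed here.

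The inner root sheath is the rigid tube of cells that surrounds the growing hair shaft and moulds it, and it is built by descendants of the proliferating hair matrix at the base of the follicle. It has an outer Henle layer, a Huxley layer and a cuticle, and lies inside the companion layer and the outer root sheath. Its cells assemble filaments from an acidic type I keratin paired with a basic type II keratin. KRT25, KRT26, KRT27 and KRT28 are the type I members, and KRT71, KRT72, KRT73 and KRT74 the type II members. Trichohyalin, a large protein of the cytoplasmic granules, is deiminated by peptidylarginine deiminases and crosslinked by transglutaminases, which fixes the filaments in a hardened matrix. GATA3 is a zinc finger transcription factor that is needed for the inner root sheath lineage in mice and is also made in the epidermis between follicles and in T cells.

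The library totals lay between 30696803 and 32463362 counts in named genes. Levels are given as CPM, the counts per 1000000 counts of a library after TMM scaling in edgeR, and a floor of 3 counts equalled 0.0873 to 0.105 CPM. LGR5, the gene whose reporter defined the sort, had 132 CPM (pig 88R) and 188 CPM (pig 95R) in LGR5-high cells, against 1.26 and 3.61 CPM in LGR5-negative cells of these pigs. Of the 6 keratinocyte markers checked against the label of epidermal cells, 5 had a row (KRT14 had none), and their summed level was between 32740 and 40800 CPM in every library. As these are bulk libraries, more cells of a type and more RNA per cell cannot be told apart.

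Transcripts of most inner root sheath keratins with a row and of trichohyalin were higher in LGR5-high cells, while the transcript of GATA3 was lower. Of the 7 genes tested, 5 rose in LGR5-high (KRT25, KRT27, KRT28, KRT74 and TCHH) and 1 fell (GATA3). A gene was called where the quasi-likelihood p-value of edgeR, adjusted by Benjamini-Hochberg over all 15980 tested genes, was below 0.05. KRT26 was not called. The background was 22.7% of all tested genes called higher and 22.0% called lower. The median log2 fold change of the 7 genes was 2.70, beside 0.02 for all tested genes.
CPM values of the populations did not overlap for any of the 7 genes, a pattern that 76.6% of all tested genes shared. For KRT26 this rests on the scaling, as LGR5-high of pig 95R and LGR5-negative of pig 88R both held 16 counts. DESeq2, limma-voom and edgeR with the pig as a replicate block each called the 5 higher genes and GATA3 too, and the shares of all tested genes called higher and lower were 20.8% and 21.2%, 22.9% and 22.1%, and 28.5% and 27.2%. By the methods' t-test on log2 CPM, which uses the spread of each gene alone, 0 of the 7 genes were called higher and GATA3 was the 1 called lower, beside 3.4% and 3.14% of all tested genes. Before adjustment, 5 genes were higher and 1 was lower by the methods' t-test at a p-value under 0.05. By the same test and unadjusted threshold, 3262 of all 15980 tested genes were higher and 3129 were lower. Only 2 pigs stand behind each population. The edgeR p-values draw on a spread shared over all tested genes as well as on that of the gene itself. The main fit does not pair the libraries of a pig.

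**Figure D1:**
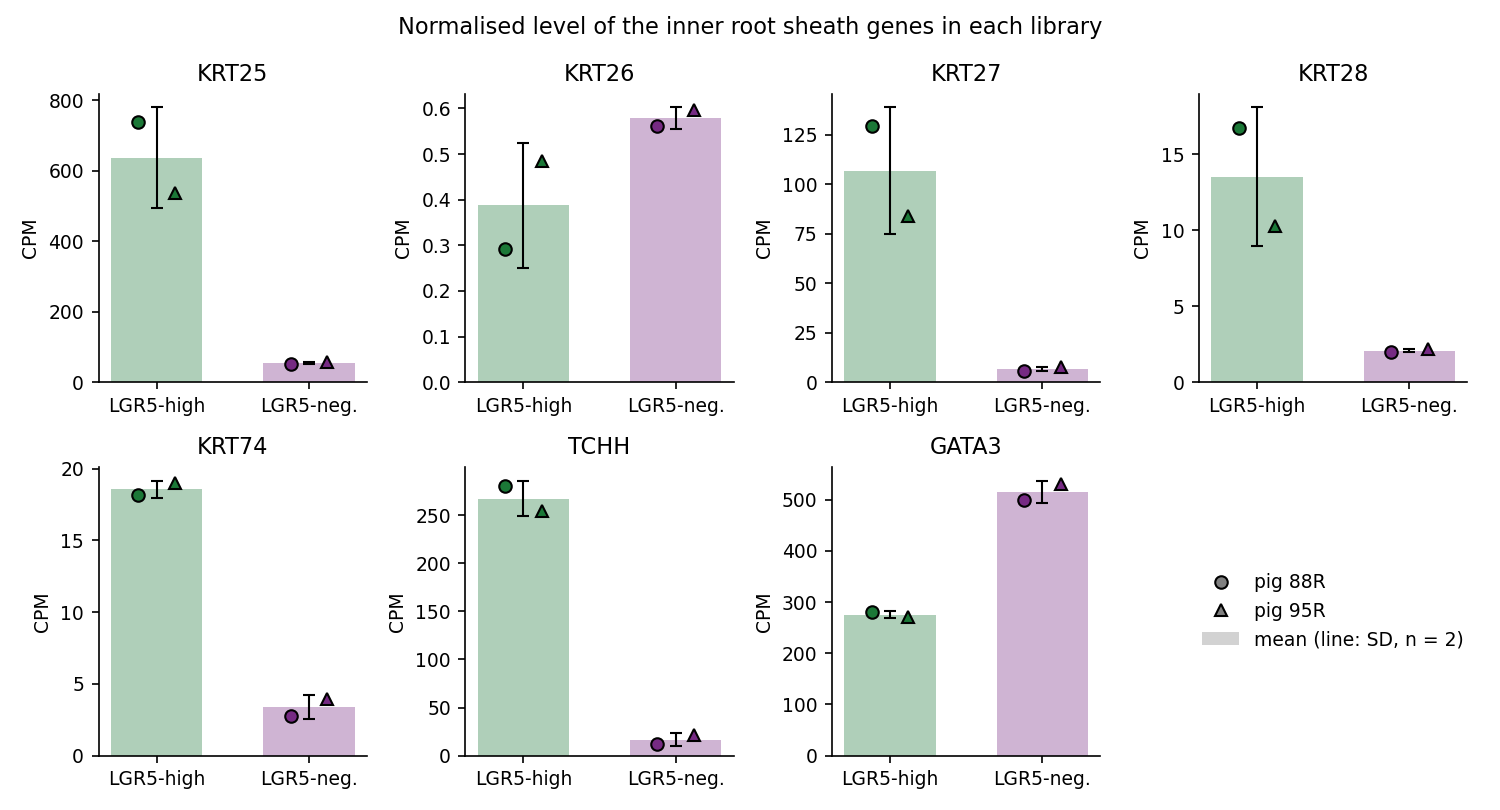
CPM (y axis, linear from 0, with its own scale for each gene) of the 7 inner root sheath genes in LGR5-high and LGR5-negative cells. Circles are pig 88R and triangles pig 95R, bars are the mean and lines the SD over the 2 pigs. In KRT25, KRT27, KRT28, KRT74 and TCHH both LGR5-high points lie above both LGR5-negative points, and in KRT26 and GATA3 they lie below.

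Among the type I keratins, KRT25, KRT27 and KRT28 are made throughout the layers of the sheath, and all were higher in LGR5-high. KRT25 had 738 CPM in the LGR5-high library of pig 88R and 536 CPM in that of pig 95R, against 52.8 and 57.3 CPM in LGR5-negative cells of these pigs. The LGR5-negative libraries were close to each other, and the larger gap between the pigs was on the LGR5-high side. The log2 fold change of KRT25 was 3.53 (standard error, SE, 0.176, edgeR adjusted p = 1.06e-04), which is 11.6-fold.
KRT27 had 129 CPM (pig 88R) and 84.2 CPM (pig 95R) in LGR5-high cells, against 5.86 and 7.54 CPM in LGR5-negative cells of these pigs. Pig 88R was thus the higher of the 2 pigs in LGR5-high and the lower in LGR5-negative. Its log2 fold change was 3.99 (SE 0.257, edgeR adjusted p = 2.10e-04), or 15.9-fold over both pigs. The CPM ratio was 22.1 for pig 88R and 11.2 for pig 95R. In the study, KRT27 protein stained the cells of dim GFP in the inner root sheath and the epidermis between follicles. The study reported that it did not co-localize with the LGR5-H2BGFP stem cells. Protein stained in tissue and RNA of sorted cells are unlike measures, and the difference was not tested.
KRT28 was counted 576 and 340 times in LGR5-high cells of pigs 88R and 95R, and 57 and 65 times in LGR5-negative cells, or 13.5 ± 4.57 against 2.08 ± 0.107 CPM (SD, n = 2 pigs each). As for KRT25, the pigs differed in LGR5-high and hardly in LGR5-negative. Its log2 fold change was 2.70 (SE 0.289, edgeR adjusted p = 0.0011). In the reference annotation of Sscrofa11.1 KRT28 overlaps the non-coding entry LOC110256012, which held between 11 and 72 counts per library and had a log2 fold change of 2.09. The strand setting of the counting is not given in the sources used here, so reads of these overlapping entries may not have been told apart.

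KRT26, a cuticle keratin, was the exception among the type I members. It was counted 10 and 16 times in LGR5-high cells of pigs 88R and 95R and 16 and 18 times in LGR5-negative cells, so every library was above the 3 counts of the floor but few reads carried the value. In CPM, the LGR5-high cells had 0.388 ± 0.137 and the LGR5-negative cells 0.579 ± 0.0242 (SD, n = 2 pigs each). The log2 fold change was -0.58 (SE 0.442, edgeR adjusted p = 0.331), and a difference was not detectable at this depth. KRT26 and KRT25 both overlap the non-coding entry LOC106505430 in the reference, which held between 9 and 13 counts per library, close to the count of KRT26 itself.

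KRT74, a type II keratin of the Huxley layer, was the only type II member with a row. It had 18.2 CPM (pig 88R) and 19.0 CPM (pig 95R) in LGR5-high cells, against 2.77 and 3.97 CPM in LGR5-negative cells of these pigs. In contrast to KRT25, KRT27 and KRT28, its LGR5-high values were nearly equal in the 2 pigs. The log2 fold change was 2.46 (SE 0.208, edgeR adjusted p = 4.97e-04), or 5.49-fold.

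TCHH had 280.3 CPM (pig 88R) and 254 CPM (pig 95R) in LGR5-high cells, against 12.1 and 21.2 CPM in LGR5-negative cells of these pigs. Here the LGR5-high values were close, and the negative library of pig 95R was above that of pig 88R. The log2 fold change of TCHH was 4.00 (SE 0.268, edgeR adjusted p = 2.36e-04), or 16.0-fold over both pigs, and the CPM ratio was 23.2 for pig 88R and 12.0 for pig 95R. Only 2.47% of all tested genes had a higher log2 fold change than TCHH, and 2.49% had a higher one than KRT27. The non-coding entry that overlaps TCHH in the reference, LOC106510155, had 0 counts in all libraries.

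GATA3 went the other way. It had 280.1 CPM (pig 88R) and 271 CPM (pig 95R) in LGR5-high cells, against 500.4 and 531 CPM in LGR5-negative cells of these pigs. Both pigs gave nearly the same values, and GATA3 was well expressed in both populations. The log2 fold change of GATA3 was -0.90 (SE 0.0802, edgeR adjusted p = 5.74e-04), a level 1.87-fold higher in LGR5-negative. In pig 88R the log2 fold change was -0.84 and in pig 95R it was -0.97.
T cells also make GATA3, and among 7 T cell markers CD3D, CD3E, CD3G, CD2 and IL7R had 0 counts in both LGR5-high libraries and between 0 and 4 counts in the LGR5-negative libraries. CD5 held between 1 and 12 counts per library. Only CD247, the T cell receptor zeta chain gene, passed the filter, with 10.8 and 11.1 CPM in LGR5-high cells against 4.11 and 3.44 CPM in LGR5-negative cells (log2 fold change 1.53). CD247 made up nearly all of the summed level of the T cell markers, which was 10.9 and 11.5 CPM in LGR5-high and 4.35 and 3.94 CPM in LGR5-negative, and apart from CD5 the other markers were counted in LGR5-negative libraries alone. The part of T cells in the values of GATA3 was not tested.

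**Figure D2:**
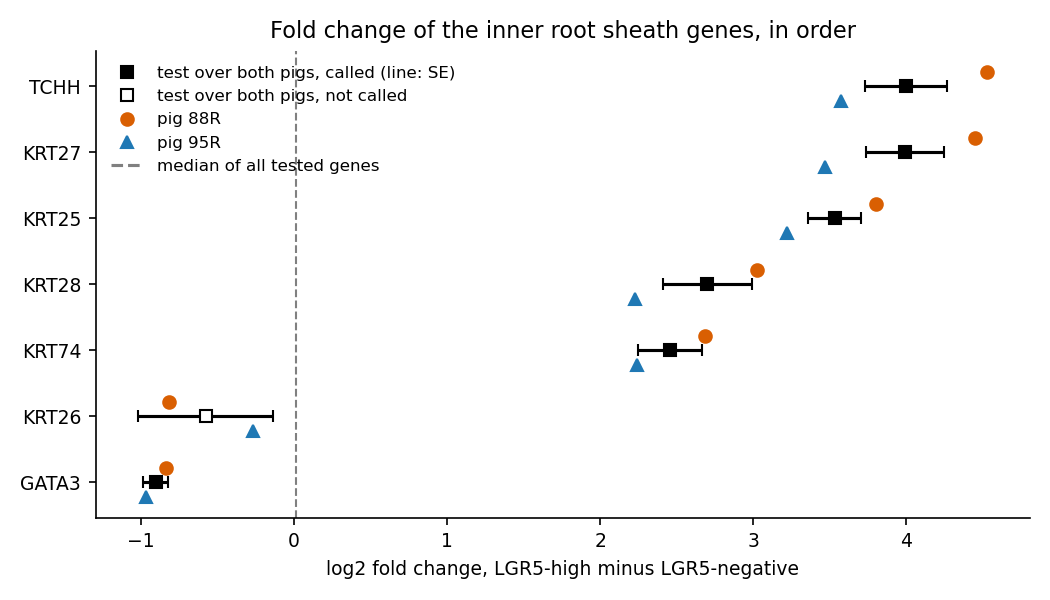
Log2 fold change between LGR5-high and LGR5-negative (x axis) of the 7 inner root sheath genes, ordered from highest to lowest. Squares with lines are the estimate over both pigs with its standard error (open: not called), circles pig 88R, triangles pig 95R, and the dashed line is the median of all tested genes. The 5 called keratin and trichohyalin genes lie between 2.46 and 4.00, with pig 88R to the right of pig 95R in each.

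In order of their log2 fold changes, TCHH and KRT27 came first and could not be separated, since they differed by 0.08 in pig 88R and by 0.11 in pig 95R. KRT25 followed, below KRT27 by 0.65 in pig 88R and by 0.25 in pig 95R. Its range over the 2 pigs (3.22 to 3.80) overlapped that of KRT27 (3.47 to 4.45). The ranges of KRT28 (2.23 to 3.03) and KRT74 (2.24 to 2.68) lay below that of KRT25 and overlapped each other. These are the orders of differences within genes. Levels of different genes were not ranked, since no transcript lengths were at hand to put them on a scale per length.
In each of the 5 higher genes the log2 fold change was larger in pig 88R than in pig 95R, by 0.58 for KRT25, 0.98 for KRT27, 0.80 for KRT28, 0.44 for KRT74 and 0.95 for TCHH. The log2 fold change of LGR5 itself was 6.64 for pig 88R and 5.68 for pig 95R. With 1 library per population in each pig, this difference between the pigs has no replicates and was not tested.

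The genes did not keep a fixed proportion to KRT25. For every 100 counts of KRT25, TCHH held 38.0 (pig 88R) and 47.4 (pig 95R) counts in LGR5-high cells, against 22.9 and 37.0 counts in LGR5-negative cells. KRT27 held 17.5 and 15.7 counts per 100 of KRT25 in LGR5-high, and 11.1 and 13.2 in LGR5-negative. TCHH and KRT27 were thus relatively more abundant in LGR5-high, with a narrow gap between the populations for TCHH.
KRT28 and KRT74 showed the reverse. KRT28 held 2.27 and 1.92 counts per 100 of KRT25 in LGR5-high, and 3.79 and 3.75 in LGR5-negative. KRT74 held 2.46 and 3.54 in LGR5-high, and 5.25 and 6.92 in LGR5-negative. These ratios within a library do not depend on the scaling between libraries, and their differences were not tested.

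**Figure D3:**
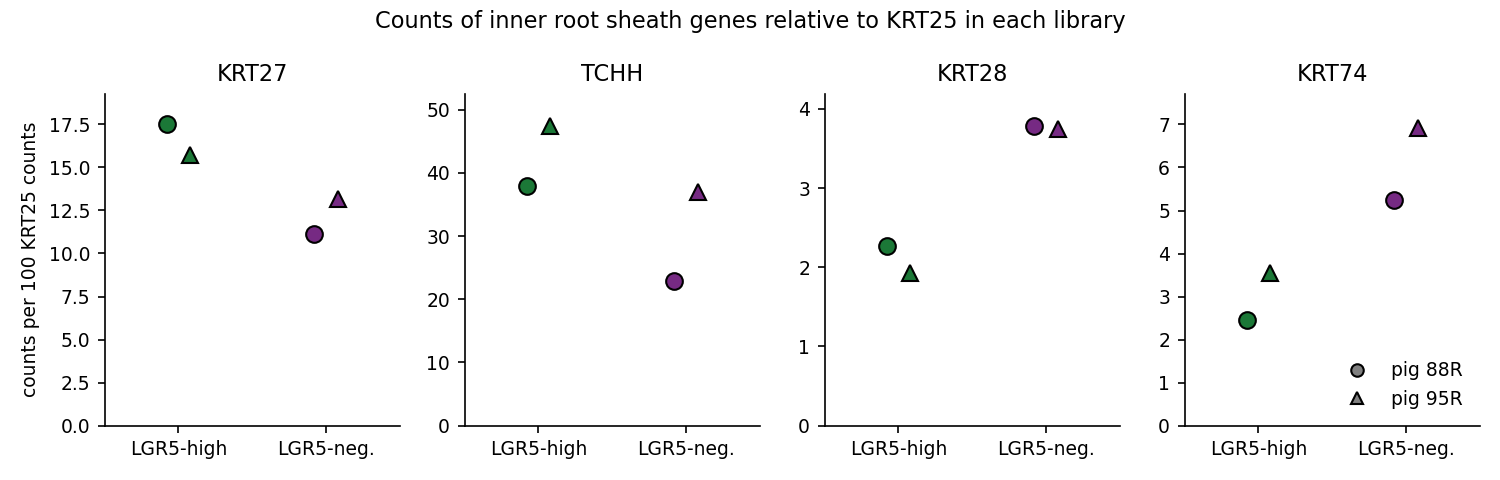
Counts of KRT27, TCHH, KRT28 and KRT74 per 100 counts of KRT25 (y axes, linear from 0) in LGR5-high and LGR5-negative libraries, with circles for pig 88R and triangles for pig 95R. The LGR5-high points are above the LGR5-negative points for KRT27 and TCHH, and below them for KRT28 and KRT74.

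Several keratin genes of this kind stand side by side in the genome, so the genes next to the members in the reference order of Sscrofa11.1 were read as well. The type I members follow each other in the order KRT28, KRT27, KRT26 and KRT25, with KRT10, a keratin of the differentiating epidermis, on the side of KRT28. KRT10 was lower in LGR5-high, with a log2 fold change of -3.44 (SE 0.135), while KRT28, the next keratin, was higher. KRT24, beyond KRT25, held between 5 and 11 counts per library and had a log2 fold change of -0.44 (edgeR adjusted p = 0.576). Of the 9 entries from KRT12 to KRT24, 8 were tested. Among these, 4 were higher and 1 was lower, beside 22.7% and 22.0% of all tested genes. The 4 higher were the members KRT25, KRT27 and KRT28 and the entry LOC110256012, which overlaps KRT28, and KRT10 was lower. The count thus holds the members themselves and is no separate result on their neighbours.
On the type II side, KRT74 lies between the entries LOC106506651 and LOC733618, which have no gene symbol, with KRT5 before them and the entry LOC100511079, KRT2 and KRT1 after. LOC106506651 was counted 32999 and 21972 times in LGR5-high cells of pigs 88R and 95R and 1055 and 1210 times in LGR5-negative cells. Its log2 fold change was 4.40 (SE 0.204, edgeR adjusted p = 9.25e-05), above that of every inner root sheath gene with a row. LOC100511079 had a log2 fold change of 1.25 (SE 0.395, edgeR adjusted p = 0.0468), and LOC733618 had 0.35 (adjusted p = 0.458). Which of these entries, if any, corresponds to KRT71, KRT72 or KRT73 was not determined, because the tables used here do not link them.
KRT5, the type II keratin of basal cells, had a log2 fold change of -0.18 (edgeR adjusted p = 0.265). The epidermal keratins KRT2 and KRT1, further along, were lower in LGR5-high, with log2 fold changes of -2.96 and -3.56. Of the 9 entries from KRT6A to KRT77, all tested, 4 were higher, KRT74 among them, and 3 were lower. The shares of all tested genes called higher and lower were 22.7% and 22.0%. How reads shared between similar keratin genes were counted is not given in the sources used here, so all keratin counts carry this uncertainty.

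**Figure D4:**
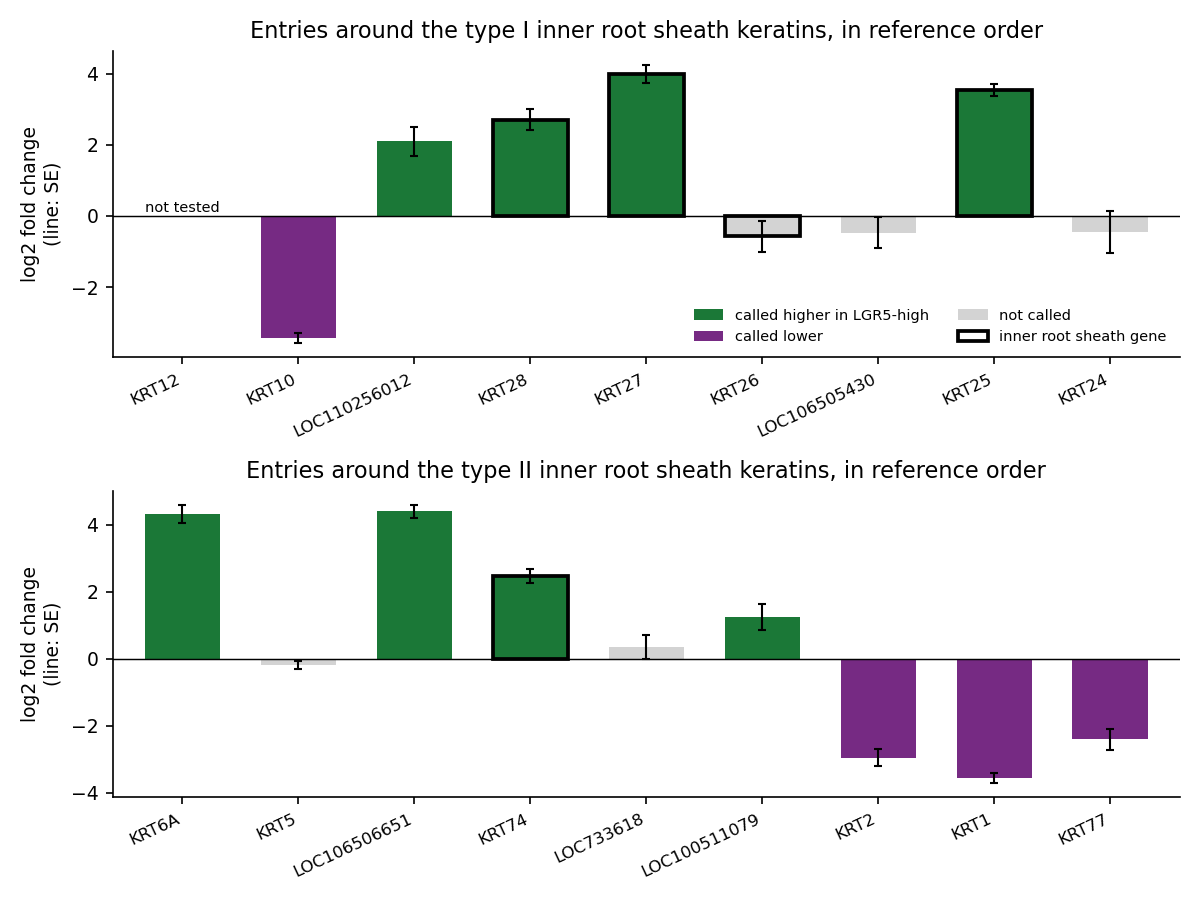
Log2 fold change between LGR5-high and LGR5-negative (y axis) with its standard error, for the entries around the type I (upper panel) and type II (lower panel) inner root sheath keratins in the order of the reference annotation. Black outlines mark the inner root sheath genes, green bars were called higher, purple bars lower and grey bars not called. KRT25, KRT27, KRT28 and KRT74 stand above 0, and KRT10, KRT2 and KRT1 in the same stretches lie below it. The entries directly beside KRT74, LOC106506651 and LOC733618, also stand above 0.

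Of 9 genes of enzymes that can modify trichohyalin, the deiminases and transglutaminases, all were tested. In LGR5-high 3 rose and 2 fell, with a median log2 fold change of 0.53. The background was 22.7% of all tested genes higher and 22.0% lower, so the lower count is near it, and no difference between the enzyme families was tested. PADI3, which deiminates trichohyalin in the follicle, was counted 499 and 565 times in LGR5-high cells of pigs 88R and 95R and 62 and 66 times in LGR5-negative cells. Its log2 fold change was 2.86 (SE 0.181, edgeR adjusted p = 1.98e-04). PADI1 and PADI4 had log2 fold changes of 3.52 (SE 0.797) and 3.71 (SE 0.363), from no more than 8 counts in any LGR5-negative library.
TGM3, which crosslinks trichohyalin and is also made in the upper epidermis, had 2918 and 1801 counts in LGR5-high and 29165 and 21666 counts in LGR5-negative, a log2 fold change of -3.64 (SE 0.278). TGM1, the membrane transglutaminase of the epidermis, was the other lower gene with -2.11 (SE 0.151). PADI2, TGM2, TGM5 and TGM6 were not called, and TGM2 had a log2 fold change of 1.55 (edgeR adjusted p = 0.0619).
Among 6 genes of the fused S100 family to which trichohyalin belongs, 4 had a row and 2 were tested. CRNN, the cornulin gene, was counted 1338 and 1182 times in LGR5-high cells of pigs 88R and 95R and 13 and 27 times in LGR5-negative cells, a log2 fold change of 5.77 (SE 0.266). HRNR, the hornerin gene, had a log2 fold change of -1.64 (edgeR adjusted p = 0.141). TCHHL1 and RPTN held at most 5 counts in any library, and FLG and FLG2 had no row.

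Beside GATA3, 10 further transcription factor genes of the inner root sheath and hair matrix were read. Of these, 4 rose and 3 fell in LGR5-high, with a median log2 fold change of 0.07, beside a background of 22.7% of all tested genes higher and 22.0% lower. HOXC13, a regulator of hair keratin genes, had the highest log2 fold change with 1.77 (SE 0.142), and CUX1, whose loss in mice disturbs the inner root sheath, had 1.35 (SE 0.0964). OVOL1, a regulator of epidermal differentiation, had -1.90 (SE 0.184), and SOX21, a factor of the hair cuticle and sheath, had -1.56 (SE 0.211). MSX2, TFAP2A and TP63 were not called.

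The keratins of the neighbouring compartments were set beside the inner root sheath keratins. Of 17 hair shaft keratins, 10 had a row and 9 were tested. Of these, 0 rose and 4 fell in LGR5-high in edgeR, beside 22.7% and 22.0% of all tested genes. The median log2 fold change of the 9 was -0.90. Before adjustment, 0 of the 9 were higher at a p-value under 0.05 in edgeR, beside 4354 of all 15980 tested genes. Also, 0 were called higher by DESeq2 or limma-voom, beside 20.8% and 22.9% of all tested genes. The number called lower was 4 in edgeR and limma-voom, 3 in DESeq2 and 0 by the methods' t-test on log2 CPM. KRT35, an early keratin of the hair matrix and cuticle, was counted 2440 and 1365 times in LGR5-high cells of pigs 88R and 95R and 9686 and 7670 times in LGR5-negative cells. Its log2 fold change was -2.40 (SE 0.281). KRT84, KRT31 and KRT36 had -2.76, -1.04 and -1.02.
Of the 7 keratins in the list named for the companion layer only 2 had a row. KRT6A, a keratin of the companion layer and of stressed epidermis, had a log2 fold change of 4.31 (SE 0.261). KRT79, in the same list, had -0.98 (SE 0.0969) and is not read here as a measure of that layer. Of the 6 suprabasal epidermal keratins, all tested, 5 were lower, beside 22.0% of all tested genes, and KRT23 was not called. Their median log2 fold change was -2.68. KRT5 and KRT15 of the basal and outer root sheath cells were not called, and KRT15 had a log2 fold change of 0.76.

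**Figure D5:**
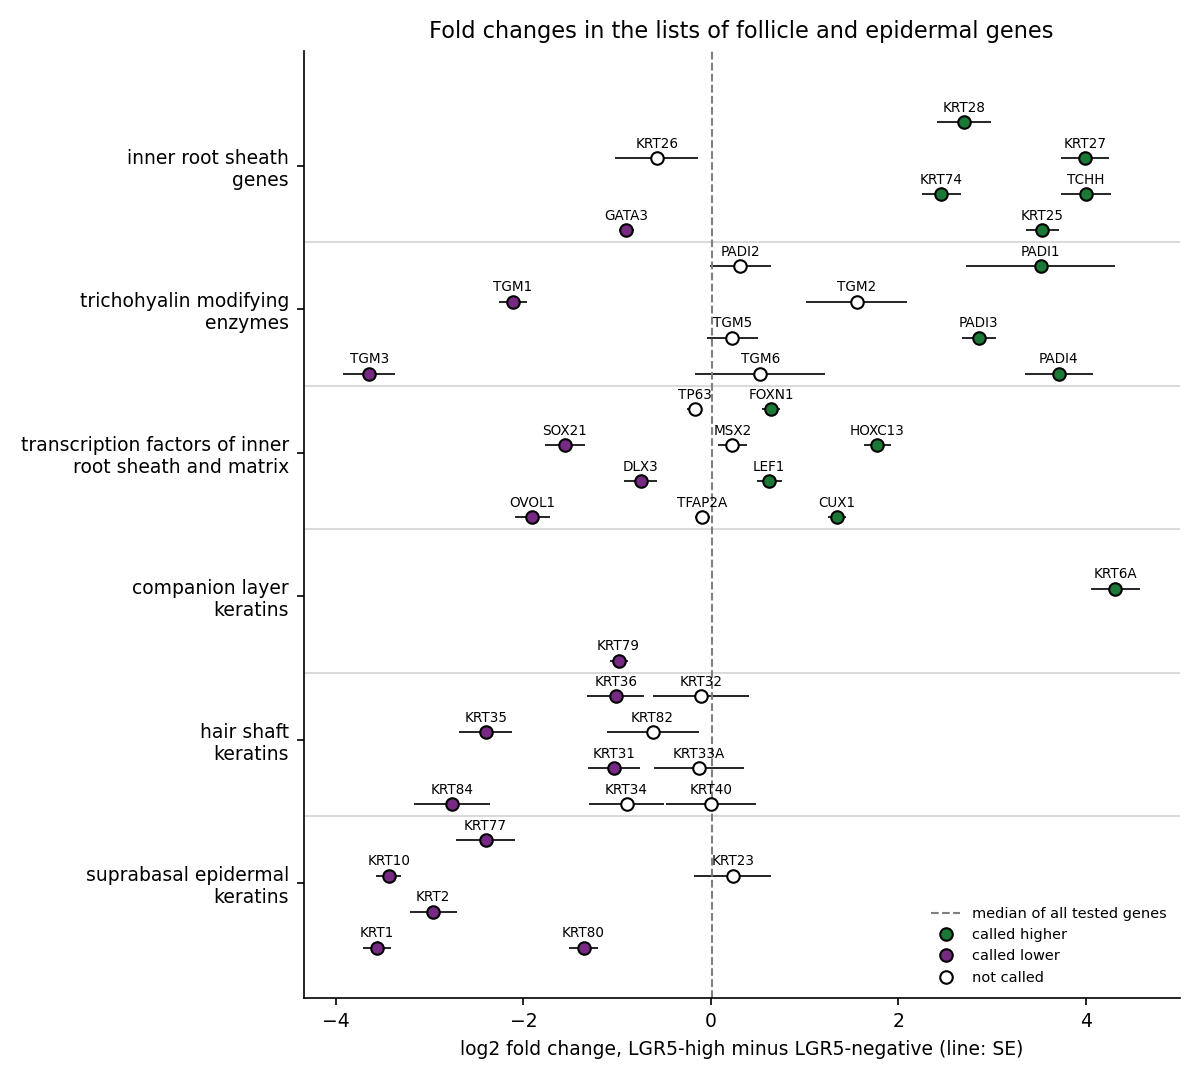
Log2 fold change between LGR5-high and LGR5-negative (x axis) with its standard error for the tested genes of 6 lists, 1 point per gene, spread vertically for legibility. Green points were called higher, purple points lower and open points not called, and the dashed line is the median of all tested genes. Apart from KRT26, the inner root sheath keratins and TCHH lie at the right beside KRT6A and the deiminases PADI1, PADI3 and PADI4, and the hair shaft and suprabasal keratins lie mostly at the left.

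Markers of other cell types were read for cells that the sort could hold. As a background for each list, edgeR called 22.7% of all tested genes higher and 22.0% lower. Leukocyte markers, with 5 of 6 having a row, were all lower in LGR5-high, with a summed level of 9.95 and 7.54 CPM in LGR5-high and 111 and 158 CPM in LGR5-negative. Melanocyte markers, 6 of 6 with a row and 4 lower, summed to 61.9 CPM in both LGR5-high libraries and to 82.7 CPM (pig 88R) and 256 CPM (pig 95R) in LGR5-negative cells. Of 5 endothelial markers 4 were lower, with at most 7.48 CPM in LGR5-high. Of 6 fibroblast markers 1 was higher and 4 were lower. Their sum was 232 and 449 CPM in LGR5-high and 346 and 225 CPM in LGR5-negative. COL1A1, the higher gene (142 and 331 CPM), and DCN (83.4 and 112 CPM) made up nearly all of the LGR5-high sum. DCN, COL3A1, LUM and PDGFRA were the lower genes.
Of 7 sebocyte markers 3 were tested, 2 of which (SOAT1 and FADS2) moved in the direction of the inner root sheath keratins, with log2 fold changes of 2.24 and 5.02. The sum of the sebocyte markers was 13.8 and 9.87 CPM in LGR5-high and 1.05 and 2.25 CPM in LGR5-negative. FADS2 (9.40 and 6.27 CPM) and SOAT1 (3.61 and 2.66 CPM) made up nearly all of the LGR5-high sum. AWAT2, the other marker tested, was not called (log2 fold change 0.07, edgeR adjusted p = 0.941). AWAT1, a defining sebocyte gene, had 0 counts in all libraries, and DGAT2L6 had between 1 and 6 counts. ELOVL3 was counted 11 and 6 times in LGR5-high cells and 0 times in both LGR5-negative libraries, and PPARG was counted 9 and 6 times against 2 and 14 times. The part of any of these cells in the values of the inner root sheath genes was not tested.

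The tested genes nearest in pattern to KRT25, the keratin member with the highest mean CPM, a measure that is not per length, were AKAP2, PLPP4 and STAG3. Nearness was the Euclidean distance over the 4 libraries between log2 CPM values (prior count 2) centred on each gene's mean. These 3 genes lay at 0.0957, 0.122 and 0.130. KRT27 lay at 0.491 from KRT25, with 81 tested genes nearer, and TCHH at 0.764 with 250 nearer. The genes nearest to TCHH were TMEM200A, ACAN and PLCB1, at 0.147, 0.231 and 0.236. The genes nearest to GATA3 were EIF4EBP2, ZNF800 and B3GALT2, at 0.0337, 0.0340 and 0.0348. The distances rest on only 4 libraries, which share the contrast of the populations, and are a description.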

How the data were processed

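RNA of LGR5-high and LGR5-negative epidermal cells sorted from 2 pigs was read as poly(A) paired-end libraries, 1 for each population and pig. Raw, unnormalized counts of reads for each gene symbol were what the authors deposited. The submitters' processing notes name Trimmomatic 0.36, STAR 2.5.2b and featureCounts of Subread 1.5.2, and the genome build, strand and multi-mapping settings are not given in the sources used here. The 1 entry without a name, with 0.360% to 0.626% of the counts of a library, was left out. Symbols of all 29837 named genes were found in RefSeq's Sscrofa11.1 gene table, read here for order and overlaps of genes alone. No sequences were at hand.

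The comparison used edgeR 4.0.16 under R 4.3.3, with filterByExpr (minimum count 10, total 15), trimmed-mean (TMM) scaling, a quasi-likelihood model of population alone and Benjamini-Hochberg adjustment across tested genes at 0.05. Tests were 2-sided. The prior count was 0.125 in the tests and 2 for fold changes within a pig and for distances between genes. The standard error is the log2 fold change divided by the root of the F statistic. CPM are given per library or as mean ± SD over the pigs. The floor of 3 counts covers counting error only, as PCR reads are not independent molecules.

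The members and lists were chosen with earlier results of these data known. The text names all members, at most the 4 largest called genes of each other list, the 3 genes nearest to TCHH, GATA3 and the keratin member with the highest mean CPM (KRT25, a choice not corrected for length), and the genes next to the keratin members, and TGM1, CD5, DGAT2L6, ELOVL3 and other marker genes were added after their values were seen. Same-pig libraries were paired by the animal number in the labels, and over tested genes the correlation between LGR5-high and LGR5-negative of the pigs' deviations was 0.370. Alternatives changed the scaling (DESeq2 size factors, upper quartile, library size only) or the filter (any gene with 1 count or more, or 10 counts or more in each library). Others changed the model (pig as replicate block, DESeq2 1.42.0, voom of limma 3.58.1, a Student t-test on log2 CPM plus 1), the prior count (2) or left out 1 library. TMM without keratin genes was chosen after seeing the data. The tests were also run on simulated counts as a check of the code alone, with far fewer changed genes than were called here. Plots were drawn with matplotlib 3.10.9.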

Additional observations from a re-analysis of the deposited data

How the results depend on the processing

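For the 7 inner root sheath genes over 15 alternatives, 100 of 105 values kept their direction and their side of the threshold, 5 kept the direction but lost the call, and 0 were reversed. The 5 lost calls were KRT25, KRT27, KRT28, KRT74 and TCHH with the Student t-test on log2 CPM, at adjusted p-values between 0.0523 and 0.0837. This t-test thus called 0 inner root sheath genes higher, against 5 with edgeR, DESeq2 and limma-voom. The t-test called 544 genes higher and 502 lower over all genes, against 3632 and 3508, and library size only gave 5473 and 2326. With library size only the median log2 fold change of all genes moved from 0.02 to 0.24 and the share of higher calls from 50.9% to 70.2%, while GATA3 was at -0.68 and still called. Leaving out each library in turn gave between 2292 and 3140 higher and between 2164 and 2925 lower genes, and the numbers of inner root sheath genes called stayed at 5 and 1. The lowest numbers of lower and of higher genes came without the LGR5-high library of pig 95R, and without that of pig 88R 2300 genes were higher. The cause was not tested, beyond the smaller number of libraries. A replicate block for the pig gave 4562 higher and 4342 lower genes, with 5 and 1 of the inner root sheath genes among them, and the block changed no call of an inner root sheath gene. Over all alternatives the log2 fold changes lay between 3.28 and 3.76 for KRT25, 3.64 and 4.27 for KRT27, 2.20 and 3.01 for KRT28, 2.18 and 2.74 for KRT74, 3.65 and 4.47 for TCHH, -0.98 and -0.19 for KRT26 and -0.95 and -0.68 for GATA3. At this depth the values of KRT26, with at most 18 counts in a library, limit any statement on that gene.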
